A study of Mus musculus with 24 samples.

Results

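The comparison described here is the training by genotype interaction: the difference between trained and sedentary mice in the KinaseDead genotype minus the same difference in WildType, for every expressed mature miRNA of subcutaneous adipose tissue. Its members are all 24 libraries of 24 in the series, in 4 groups of 6. The sedentary wild type and trained wild type groups carried the WildType genotype, and the sedentary kinase dead and trained kinase dead groups carried the KinaseDead genotype. All mice were female, ate chow and are given no age in the labels. Training was 1 hour of treadmill running at 16 m/min on 5 days a week for 6.5 weeks, together with free use of a running wheel, and the labels print this treatment text for all libraries. The kinase concerned, the allele and the cells in which it acts are not named in the labels, and small RNA libraries do not measure its transcript, so the genotype labels were not checked against the counts.

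MicroRNAs are short RNAs that guide Argonaute proteins to messenger RNAs, mainly through the seed near their 5′ end, and lower the stability and translation of those messages. In fat they act on the formation of adipocytes, on the choice between storing and burning lipid, and on insulin sensitivity, and some leave the tissue in vesicles. A fat pad also holds vessels, blood, nerve, lymph nodes and strips of muscle, each with miRNAs of its own, so a bulk library sums over all of them. In bulk tissue, fewer cells of a type and less RNA per cell cannot be told apart.

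Of 2045 annotated mature loci, 654 held enough reads to be tested, and they stand for 550 distinct miRNAs once loci that share reads are counted once. The 1391 loci below the filter held 0.0166% of the reads. Library totals ran from 1.60 to 23.6 M reads, with medians of 3.75 M (sedentary) and 10.8 M (trained) for wild type, and of 6.0 M (sedentary) and 9.67 M (trained) for kinase dead. Levels are given as CPM, reads scaled to a common library size, and 3 reads stand for 0.118 to 1.8 CPM across libraries. 7 libraries stood apart by at least 2000 CPM of the lymphocyte miRNA miR-150-5p, 1 in sedentary wild type and 2 in each other group, and leaving them out took the median interaction of all features from 0.0050 to 0.11, with 397 of 654 above 0. List values given below without these 7 libraries are to be read against that median. As for the tissue label, miRNAs known from adipocytes were abundant, with mean levels of 33470 CPM for miR-148a-3p and 13330 CPM for miR-378a-3p.

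The sequences of the miRNAs on which the account turns are shown first, in RefSeq's mature form on GRCm38.p6, 5′ to 3′, with the seed (bases 2 to 8) in capitals. The red-cell miRNAs miR-451a and miR-144 lie next to each other on chromosome 11, on the plus strand and outside annotated genes of that strand, at chr11:78073186-78073207 for miR-451a, chr11:78073047-78073066 for miR-144-3p and chr11:78073010-78073032 for miR-144-5p.
miR-451a: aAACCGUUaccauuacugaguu
miR-144-3p: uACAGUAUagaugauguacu
miR-144-5p: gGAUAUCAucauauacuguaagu
The next 6 had interactions above 0 and lie in the intron of Gabre (miR-224-5p, chrX:72261085-72261105), outside genes of their strand (miR-34b-5p, chr9:51103610-51103632, and miR-221-3p, chrX:19146307-19146329), in an exon of the noncoding Lncppara (let-7b-3p, chr15:85707379-85707400), in an exon of D630033A02Rik (let-7i-5p, chr10:122985698-122985719) and in an intron of Wdr82 (let-7g-5p, chr9:106178846-106178867). The last pair shows the seed common to the let-7 5p arms.
miR-224-5p: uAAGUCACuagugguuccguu
miR-34b-5p: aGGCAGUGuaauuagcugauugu
miR-221-3p: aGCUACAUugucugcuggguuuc
let-7b-3p: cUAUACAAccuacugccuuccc
let-7i-5p: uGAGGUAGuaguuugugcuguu
let-7g-5p: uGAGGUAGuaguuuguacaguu
The miR-101 loci are shown together because miR-101c lay above 0 and miR-101a-3p and miR-101b-3p lay below it. The whole of miR-101c lies within the sequence of miR-101a-3p, and all of these loci share a stretch of 14 bases, ACAGUACUGUGAUA. That stretch starts at base 2 of miR-101a-3p, base 3 of miR-101b-3p and base 1 of miR-101c as annotated, so the capitals fall on different letters in each. miR-101c lies at chr9:3038680-3038698, miR-101a-3p at chr4:101346957-101346977 in an exon of E130102H24Rik, and miR-101b-3p at chr19:29135338-29135356 in an intron of Rcl1.
miR-101a-3p: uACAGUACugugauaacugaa
miR-101b-3p: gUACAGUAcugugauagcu
miR-101c: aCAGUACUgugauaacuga
Among miRNAs below 0, both arms of the miR-28a hairpin come from an intron of Lpp (chr16:24827868-24827889 for the 5p arm, chr16:24827908-24827929 for the 3p arm), and miR-708-5p shares the seed of miR-28a-5p. miR-674-3p (chr2:117185186-117185207), miR-194-5p (chr19:6264658-6264679) and miR-184-3p (chr9:89802263-89802284) lie outside genes of their strand.
miR-28a-5p: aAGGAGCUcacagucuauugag
miR-28a-3p: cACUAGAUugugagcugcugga
miR-708-5p: aAGGAGCUuacaaucuagcuggg
miR-674-3p: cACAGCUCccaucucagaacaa
miR-194-5p: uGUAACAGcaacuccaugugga
miR-184-3p: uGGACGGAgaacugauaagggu

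No miRNA passed the test of the interaction. In edgeR (quasi-likelihood test, Benjamini-Hochberg over 654 features) 0 had an adjusted p under 0.05 (0%), and the smallest adjusted p was 0.9996. Before adjustment 13 features (1.99%) had p under 0.05, 7 with the interaction above 0 (1.07%) and 6 below it (0.917%), where 32.7 would be expected if p-values were evenly spread. The 6 below it include miR-129-5p and miR-129b-3p, which share their reads. The split of those 13 depended on the scaling of libraries: it was 9 above and 5 below with median-of-ratios factors, and 1 above and 11 below with upper quartile factors, which moved the median of all features from 0.0050 to -0.068 on the log2 scale. limma-voom and DESeq2 also gave 0 at the adjusted threshold, with 7 and 14 features at an unadjusted p under 0.05. Whether each library is a mouse of its own is not stated, so these p-values measure the spread between libraries, which may be technical.

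The unadjusted p-values leaned towards large values. Their median was 0.548, and 354 of 654 (54.1%) were above 0.5. Up to 0.1 there were 32 features against 65.4 for an even spread, and each later step of 0.1 held 61 to 78. Because features share libraries and some share reads, they are not independent, and the shape is a description.

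Neither genotype alone gave a training effect past the threshold. In wild type 0 of 654 features had an adjusted p under 0.05 (0%, smallest 0.831), with 38 at an unadjusted p under 0.05. In kinase dead 0 of 654 passed (0%, smallest 0.887), with 17 at an unadjusted p under 0.05. For every tested feature the 6 trained libraries overlapped the 6 sedentary ones in both genotypes. The training effects of the genotypes rest on different libraries, and across the 654 features they were weakly related (Pearson r 0.166, Spearman rho 0.104). Among the 384 features with a mean of at least 10 CPM the values were 0.105 and 0.046. Their signs differed for 322 of 654 features (49.2%): 167 lay above 0 in wild type and below 0 in kinase dead, and 155 the other way round.

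**Figure D1:**
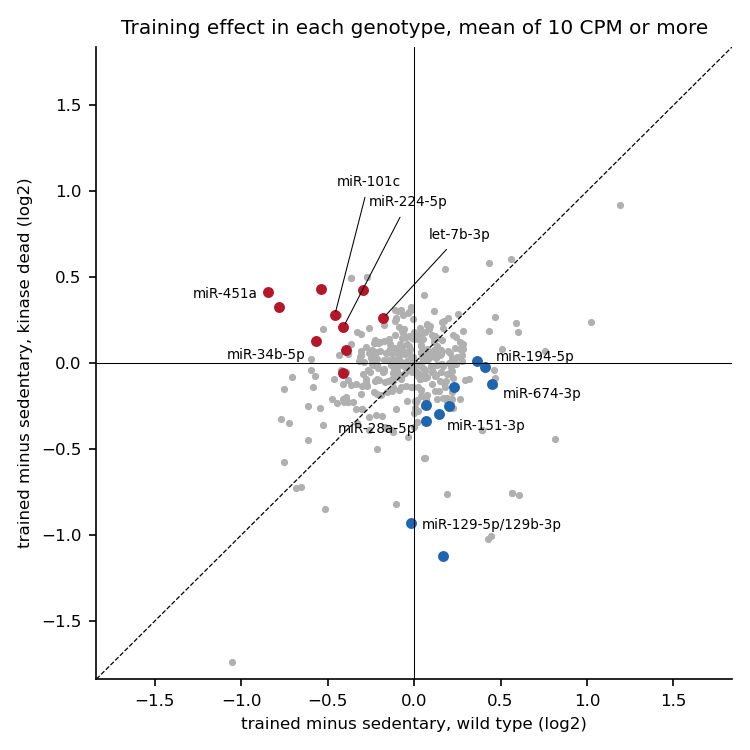
Trained minus sedentary difference (log2) in wild type (x axis) against kinase dead (y axis) for the 384 tested features with a mean of at least 10 CPM. Each point is a feature, red and blue points are the 10 with the smallest interaction p above and below 0, and the dashed line marks equal effects. The cloud has no slope to speak of (Pearson r 0.105), and the red points sit on the left, below 0 in wild type.

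Intervals show what sizes of interaction these libraries leave possible. They rest on the quasi-likelihood statistic alone. For features with a fitted variance under the Poisson level they can be narrower than the p-value implies. The median half-width of the 95% interval was 0.76 log2 units over all features, 1.07 for the 270 features under 10 CPM, 0.67 from 10 to 100 CPM, 0.59 from 100 to 1000 CPM, 0.47 from 1000 to 10000 CPM and 0.43 at 10000 CPM or more. The whole interval lay within a 2-fold difference either way for 314 of 654 features (48.0%), for 270 of 384 at 10 CPM or more (70.3%) and for 23 of the 24 most abundant. The exception among those 24 was miR-22-3p, a miRNA known from muscle and fat metabolism, with an interaction of 0.45 and an interval of -0.56 to 1.46. Some abundant miRNAs had far wider intervals. The lymphocyte miRNA miR-142a-5p, at a mean of 3162 CPM, had an interval of -3.30 to 2.66, and miR-150-5p had one of -2.70 to 2.17.

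The 10 most abundant miRNAs show the scale at which an interaction could have been seen. miR-143-3p, a miRNA of contractile cells that also favours adipocyte differentiation, had an interaction of 0.13 (95% interval -0.34 to 0.60). miR-21a-5p, a miRNA of proliferating and stressed tissue, had -0.28 (-0.72 to 0.15), and the vessel miRNA miR-126a-3p, which shares its reads with miR-126b-5p on the opposite strand, had -0.31 (-0.86 to 0.24). miR-148a-3p, known to promote adipogenesis, had 0.078 (-0.36 to 0.51), and miR-30a-5p, of a family known from beige fat, had 0.095 (-0.39 to 0.58). miR-99a-5p had 0.033 (-0.53 to 0.60) and miR-26a-5p, a promoter of brown adipocyte differentiation, had 0.048 (-0.37 to 0.47). let-7g-5p had 0.36 (-0.096 to 0.82), let-7i-5p had 0.47 (-0.016 to 0.95) and miR-101a-3p had -0.37 (-0.86 to 0.13). All 10 intervals include 0, and for each the whole interval stayed under a 2-fold difference.

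**Figure D2:**
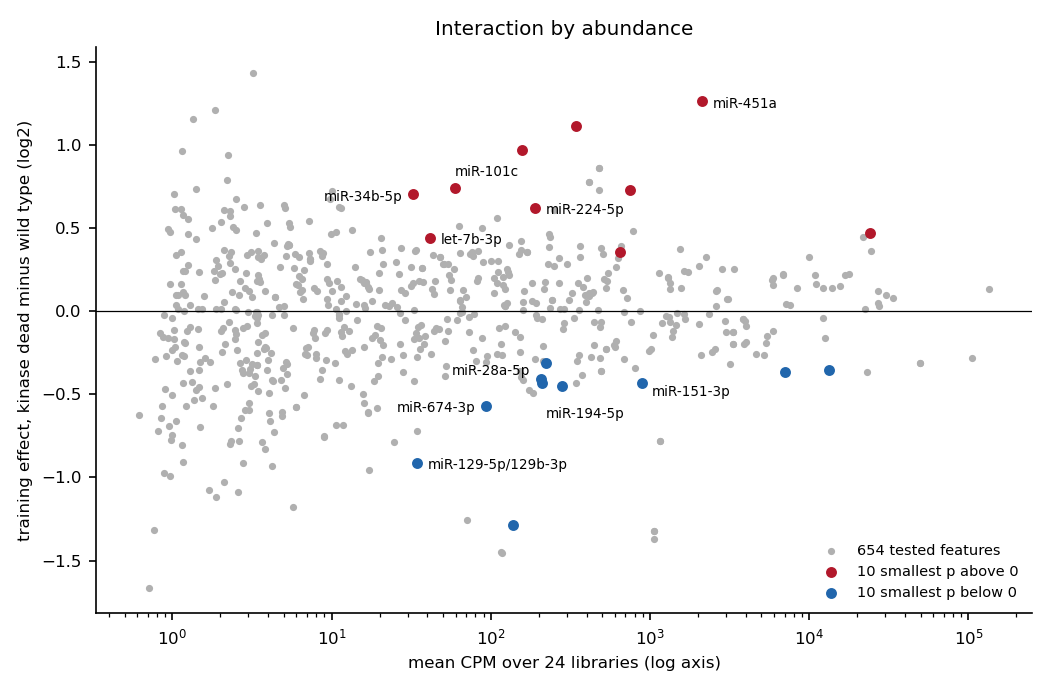
Interaction (training effect in kinase dead minus wild type, log2) of each of the 654 tested features against its mean level over the 24 libraries (CPM, log axis). Red and blue points mark the 10 features of at least 10 CPM with the smallest p on each side of 0, 5 of them named on each side. The cloud narrows with abundance, and miR-451a stands farthest out among miRNAs above 1000 CPM on the upper side, at 1.26.

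The miRNAs named next are those with the smallest unadjusted p on each side of 0 among features of at least 10 CPM. They were picked for their p, all have an adjusted p of 0.9996 or more by edgeR's quasi-likelihood test, and their values are a description.

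The smallest p above 0 belonged to miR-451a, an abundant miRNA of red cells that is cut by Argonaute itself in place of Dicer. Its level was 1733 to 7010 CPM in sedentary wild type (median 1933) and 904 to 3204 CPM in trained wild type (median 1525). In kinase dead it was 935 to 3009 CPM when sedentary (median 1414) and 1383 to 3349 CPM when trained (median 1840). Sedentary and trained libraries overlapped in both genotypes, and the highest of all was sedentary wild type replicate 1. The training effect was -0.85 (SE 0.37) in wild type and 0.41 (SE 0.36) in kinase dead on the log2 scale, which gave an interaction of 1.26 (SE 0.52, unadjusted p = 0.0227 by edgeR's quasi-likelihood test), or 2.40-fold (95% interval 1.14 to 5.02). Without sedentary wild type replicate 1 the interaction was 0.83.

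miR-144, made from the same stretch of chromosome 11, lay on the same side. miR-144-3p had group medians of 359.9 CPM in sedentary wild type, 247.7 in trained wild type, 211.3 in sedentary kinase dead and 331.9 in trained kinase dead, and an interaction of 1.11 (SE 0.60). miR-144-5p had an interaction of 0.97 (SE 0.55). Both leaned on the same libraries as miR-451a: without sedentary wild type replicate 1 the interactions of the 3p and 5p arms were 0.66 and 0.57, and without sedentary kinase dead replicate 2 they were 1.63 and 1.29.

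miR-224-5p, an intronic miRNA of a GABA receptor gene known from TGF-beta signalling, had the next smallest p. Its level was 151.2 to 320.3 CPM in sedentary wild type (median 202.5) and 110.3 to 193.8 CPM in trained wild type (median 161.6). The kinase dead libraries held 144.7 to 221.9 CPM when sedentary (median 164.8) and 142.8 to 268.9 CPM when trained (median 202.4). The trained libraries were on average lower than the sedentary ones in wild type and higher in kinase dead, with overlap in both. The interaction was 0.62 (SE 0.27, unadjusted p = 0.0305), or 1.54-fold.

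let-7b-3p, the passenger arm of a let-7 hairpin, was 39.3 to 51.0 CPM in sedentary wild type (median 46.1) and 32.03 to 48.0 CPM in trained wild type (median 38.9). In kinase dead it was 32.7 to 41.6 CPM when sedentary (median 36.9) and 34.3 to 57.4 CPM when trained (median 43.1). The top of the trained kinase dead group was formed by replicates 1 and 2. The interaction was 0.44 (SE 0.20, unadjusted p = 0.0370), and 0.29 without trained kinase dead replicate 1. The 3 other tested miRNAs with a matched RefSeq sequence and its seed, let-7a-1-3p, let-7f-1-3p and miR-98-3p, all lay above 0, with a median of 0.23.

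miR-34b-5p, of the p53-responsive miR-34 family, was 24.9 to 61.8 CPM in sedentary wild type (median 33.7) and 21.7 to 28.7 CPM in trained wild type (median 25.1). The kinase dead libraries held 25.0 to 44.8 CPM when sedentary (median 30.4) and 22.2 to 53.7 CPM when trained (median 34.2). The 6 trained wild type libraries were close together, and the other groups were spread. The interaction was 0.70 (SE 0.33, unadjusted p = 0.0426). Of 2 other tested miRNAs with a matched RefSeq sequence and its seed, 1 lay above and 1 below 0. miR-34c-5p of the same family had no matched sequence and is not among them.

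miR-101c was 44.2 to 87.7 CPM in sedentary wild type (median 65.3) and 37.7 to 56.8 CPM in trained wild type (median 46.3). In kinase dead it was 45.6 to 75.7 CPM when sedentary (median 52.8) and 33.7 to 116.3 CPM when trained (median 61.2), so the trained kinase dead libraries covered the whole range. The interaction was 0.74 (SE 0.36, unadjusted p = 0.0491). Its whole mature sequence, as annotated, lies within that of miR-101a-3p, a far more abundant locus (mean 22990 CPM). Reads of miR-101c therefore cannot be fully told apart from those of miR-101a-3p, whose interaction was -0.37 (SE 0.24). miR-101b-3p, at a mean of 6996 CPM, also had -0.37 (SE 0.21).

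The other 5 on the upper side were let-7i-5p and miR-221-3p, both arms of miR-144, and miR-378d. miR-221-3p, an inhibitor of the cell cycle brake p27 that is known to restrain adipocyte differentiation, had a training effect of -0.41 (SE 0.13) in wild type and -0.058 (SE 0.13) in kinase dead. Its interaction was 0.36 (SE 0.18), and 0.21 without trained kinase dead replicate 2. miR-378d, at a mean of 752.3 CPM, had an interaction of 0.73 (SE 0.37). miR-378a-3p, the abundant member of that family (mean 13330 CPM), lay on the lower side at -0.35 (SE 0.20). miR-378d is within 2 mismatches of miR-378b and miR-378c. No sequence was matched for miR-378a-3p, so whether its reads are counted at miR-378d was not tested.

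**Figure D3:**
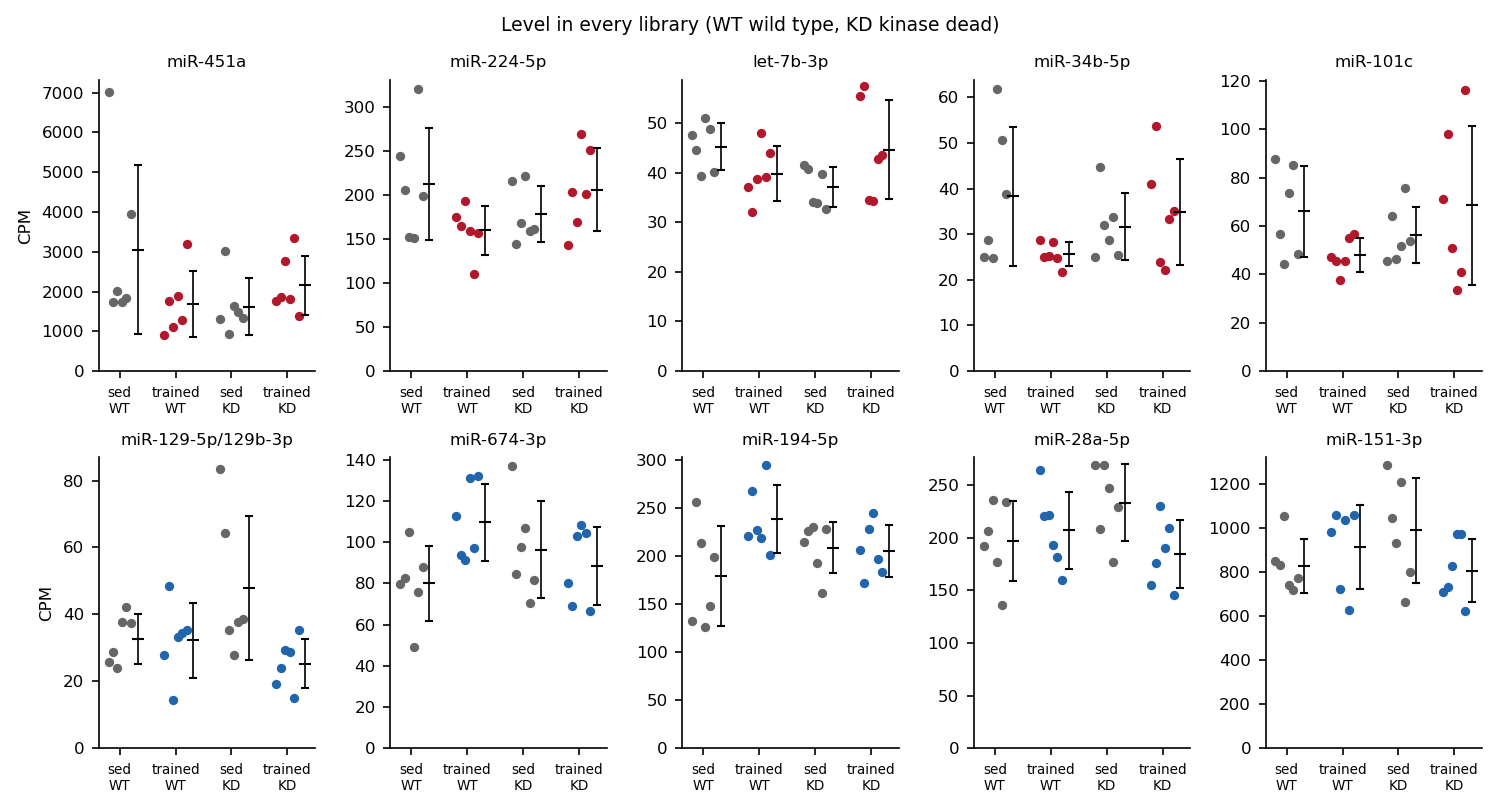
Level in CPM of each of 5 miRNAs with an interaction above 0 (top row) and 5 below 0 (bottom row) in every library. Grey points are sedentary and coloured points trained libraries, 6 in each group, and the bar beside each group is the mean with 1 SD. Trained and sedentary libraries overlap in every panel, and for miR-451a 1 sedentary wild type library stands at 7010 CPM.

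On the lower side the smallest p belonged to the locus of miR-129-5p, a miRNA best known from brain, whose reads are shared with miR-129b-3p on the opposite strand. Its level was 23.9 to 42.1 CPM in sedentary wild type (median 33.1) and 14.4 to 48.5 CPM in trained wild type (median 33.7). The kinase dead libraries held 27.7 to 83.5 CPM when sedentary (median 38.2) and 15.01 to 35.5 CPM when trained (median 26.4). The trained and sedentary medians were close in wild type and apart in kinase dead. The training effect was -0.018 (SE 0.28) in wild type and -0.93 (SE 0.28) in kinase dead. Its interaction was -0.91 (SE 0.39, unadjusted p = 0.0293 by edgeR's quasi-likelihood test). The other genomic copy of miR-129-5p, at a mean of 34.4 CPM, had an interaction of -0.72 (SE 0.41). Its unadjusted p was 0.0895 by edgeR's quasi-likelihood test.

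miR-674-3p was 49.2 to 105.0 CPM in sedentary wild type (median 81.3) and 91.3 to 132.1 CPM in trained wild type (median 104.8). In kinase dead it was 70.6 to 136.8 CPM when sedentary (median 91.2) and 66.4 to 108.3 CPM when trained (median 91.6). The medians differed in wild type and were nearly equal in kinase dead. The interaction was -0.57 (SE 0.26, unadjusted p = 0.0380), or 0.673-fold.

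miR-194-5p, a miRNA of liver and gut epithelium, was 126.6 to 256.4 CPM in sedentary wild type (median 173.9) and 201.5 to 294.8 CPM in trained wild type (median 224.4). The kinase dead libraries held 161.8 to 230.1 CPM when sedentary (median 220.5) and 172.7 to 245.3 CPM when trained (median 202.2). Here too the medians differed more in wild type, with overlap. The interaction was -0.43 (SE 0.23, unadjusted p = 0.0718).

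miR-28a-5p was 136.1 to 235.9 CPM in sedentary wild type (median 199.5) and 159.7 to 263.8 CPM in trained wild type (median 207.0). In kinase dead it was 176.4 to 269.3 CPM when sedentary (median 237.9) and 145.2 to 230.2 CPM when trained (median 183.2). Its trained libraries were on average lower in kinase dead. The interaction was -0.41 (SE 0.22, unadjusted p = 0.0800), and the other arm of the same hairpin, miR-28a-3p, had -0.31 (SE 0.18). miR-708-5p, which shares the seed of miR-28a-5p, had -0.16.

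miR-151-3p, from an intron of the focal adhesion kinase gene Ptk2, was 717.5 to 1057 CPM in sedentary wild type (median 805.3) and 626.7 to 1062 CPM in trained wild type (median 1010). The kinase dead libraries held 663.6 to 1290 CPM when sedentary (median 989.8) and 625.8 to 973.9 CPM when trained (median 780.8). The medians moved in opposite directions and all 4 groups overlapped. The interaction was -0.44 (SE 0.24, unadjusted p = 0.0844).

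The rest of the lower 10 were miR-28a-3p, miR-378a-3p, miR-101b-3p, miR-184-3p and the locus shared by miR-30e-3p and miR-30f. miR-378a-3p, made from an intron of Ppargc1b and known from mitochondrial metabolism and brown fat, had a training effect of 0.36 (SE 0.14) in wild type and 0.011 (SE 0.14) in kinase dead. The locus of miR-30e-3p had an interaction of -0.45 (SE 0.26). miR-184-3p had the lowest interaction of the 10, at -1.29 (SE 0.76), with 44.0 to 504.1 CPM in sedentary kinase dead, and it was -0.77 without sedentary kinase dead replicate 1, the library at the top of that range.

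**Figure D4:**
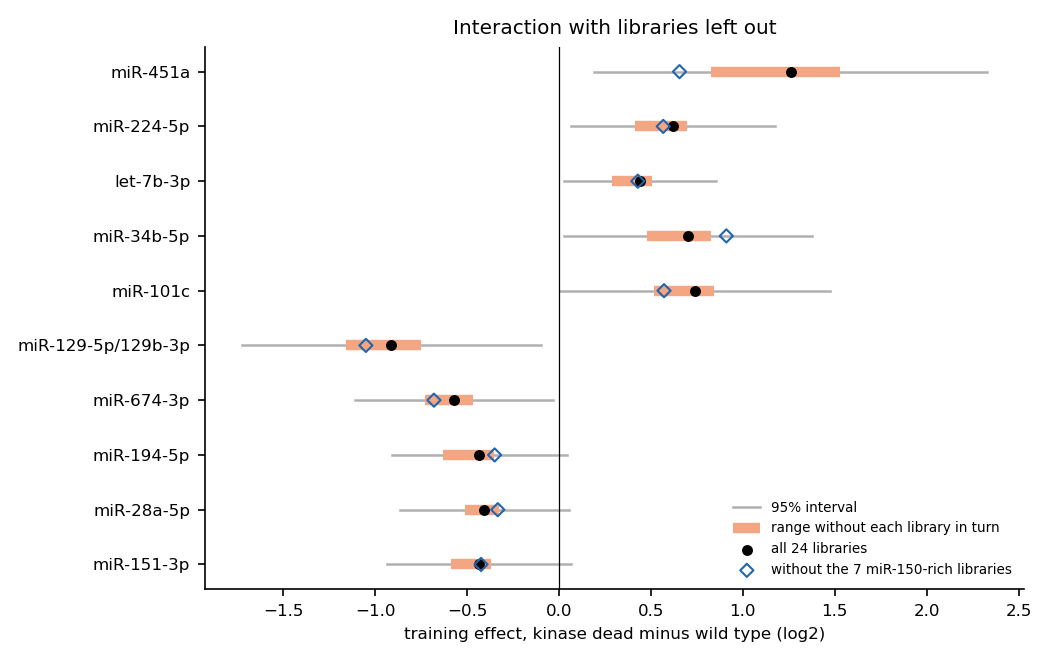
Interaction (log2) of the same 10 miRNAs: black points use all 24 libraries, grey lines are the 95% intervals, orange bars span the values with each library left out in turn, and blue diamonds leave out the 7 libraries rich in miR-150-5p. Every orange bar stays on its side of 0, and among the 5 above 0 the diamond of miR-451a lies farthest below its point.

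Below 10 CPM, the 3 smallest p above 0 were those of miR-135b-5p (1.16, SE 0.53), miR-6392-5p (0.79, SE 0.37) and miR-23b-5p (0.94, SE 0.52), and the 3 below 0 were those of miR-1941-5p (-1.12, SE 0.46), miR-101b-5p (-0.78, SE 0.36) and miR-673-5p (-1.03, SE 0.48). miR-1941-5p had the smallest unadjusted p of all 654 features, 0.0215. Its group medians were 1.39 CPM in sedentary wild type, 2.21 in trained wild type, 2.36 in sedentary kinase dead and 1.39 in trained kinase dead, a few reads in the shallower libraries. These 6 miRNAs had mean levels of 1.35 to 2.64 CPM, near what 3 reads stand for in the smallest library.

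Both arms of miR-203, a miRNA of skin epithelium, were higher on average in trained libraries of both genotypes. miR-203-3p had a training effect of 0.43 (SE 0.15) in wild type and 0.18 (SE 0.15) in kinase dead. The interaction was -0.25 (95% interval -0.69 to 0.20), so an effect equal in both genotypes lies inside the interval. miR-203-5p had an interaction of -0.36 (95% interval -0.92 to 0.20).

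Markers of other cells that a fat pad can hold were laid beside these values. For all tested features together, 331 of 654 interactions lay above 0 and 323 below it, with a median of 0.0050. Without single libraries that median ran from -0.074 to 0.081, and the count above 0 from 268 to 379. The count was 287 without trained kinase dead replicate 1, 294 without trained kinase dead replicate 5 and 278 without trained wild type replicate 3. With upper quartile factors it was 281. List counts under these settings are to be read against those of all features. No member of any list passed the adjusted threshold, where 0% of all features did.

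Red-cell miRNAs (miR-451a, both arms of miR-144 and of miR-486) all lay above 0: 7 of 7 tested features, standing for 5 distinct miRNAs, with a median interaction of 0.86 and a range of 0.77 to 1.26. In wild type all 7 training effects were below 0 (median -0.36), and in kinase dead all 7 were above 0 (median 0.50). 1 of the 7, miR-451a, had an unadjusted p under 0.05. The list's mean log2 CPM was 8.10 to 10.47 in sedentary wild type, 7.62 to 9.69 in trained wild type, 7.73 to 9.38 in sedentary kinase dead and 8.11 to 9.33 in trained kinase dead, so the groups overlapped. The 7 features stayed above 0 with any single library left out, while the median went from 0.86 to 0.39 without sedentary wild type replicate 1 and to 0.12 without the libraries rich in miR-150-5p, where the median of all features was 0.11. The part of red-cell RNA in other interactions was not tested. With miR-451a as a covariate 17 features had an unadjusted p under 0.05 and 0 passed the adjusted threshold.

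Muscle miRNAs lay far on the other side: 9 of 10 tested features below 0, with a median of -1.14, for 6 distinct miRNAs. The list's most abundant member, miR-1a-3p, had 298.6 to 3327 CPM in sedentary wild type, 463.4 to 2810 in trained wild type, 202.2 to 3642 in sedentary kinase dead and 323.5 to 1060 in trained kinase dead. Sedentary wild type replicate 2 and sedentary kinase dead replicate 2 each stood far above the rest of their group. The interaction of miR-1a-3p was -1.37 (SE 0.96) and that of miR-133a-3p was -1.45 (SE 0.95), neither past an unadjusted p of 0.05 by edgeR's quasi-likelihood test. Both values depended on those 2 libraries. Without sedentary kinase dead replicate 2 the values were -0.28 and -0.073, and without sedentary wild type replicate 2 they were -2.26 and -2.28. miR-499-5p, an intronic miRNA of a myosin gene, was the 1 member above 0, at 0.21 (SE 0.40).

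Lymphocyte miRNAs (miR-150, miR-142, miR-155, miR-342 and miR-181) had 4 of 15 features above 0 and a median of -0.20. Their levels were widely spread within every group. miR-150-5p was 623.8 to 6098 CPM in sedentary wild type and 551.0 to 6955 CPM in trained kinase dead, and its interaction of -0.27 (SE 1.18) was -1.34 without sedentary wild type replicate 1 and 0.34 without trained wild type replicate 1. Without the 7 libraries rich in miR-150-5p, 12 of the 15 lay above 0, beside a median of 0.11 for all features.

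Liver and gut miRNAs had 0 of 5 features above 0 and a median of -0.43, led in level by miR-192-5p (-0.18, SE 0.17) and the 2 loci of miR-194-5p, which share a mature sequence. The lowest was miR-122-5p, the liver's main miRNA, at -1.26 (SE 1.30) and a mean of 70.7 CPM, ranging from 4.35 to 423 CPM over the libraries. Stromal miRNAs of the miR-199 and miR-214 group had 8 of 8 features above 0, with a median of 0.14, but 5 of 8 with upper quartile factors and 4 of 8 without trained kinase dead replicate 1. For vessel lining, the 2 features of miR-126 had -0.31 (SE 0.26) and -0.050 (SE 0.19). Epithelial miRNAs had 7 of 11 above 0 (median 0.098; -0.079 without sedentary kinase dead replicate 4 and 0.33 without the libraries rich in miR-150-5p), with miR-200a-3p at 0.32 (SE 0.23) and miR-200b-3p at -0.12 (SE 0.32). For smooth muscle, 3 of 4 features lay above 0 (median 0.23), with miR-145a-5p at 0.33 (SE 0.23). In myeloid cells, miR-223-3p had 0.062 (SE 0.19) and miR-223-5p -0.13 (SE 0.29). Nerve miRNAs were split evenly, 9 of 18 above 0, with miR-128-3p at 0.0055 (SE 0.56) and miR-338-3p at 0.033 (SE 0.66).

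**Figure D5:**
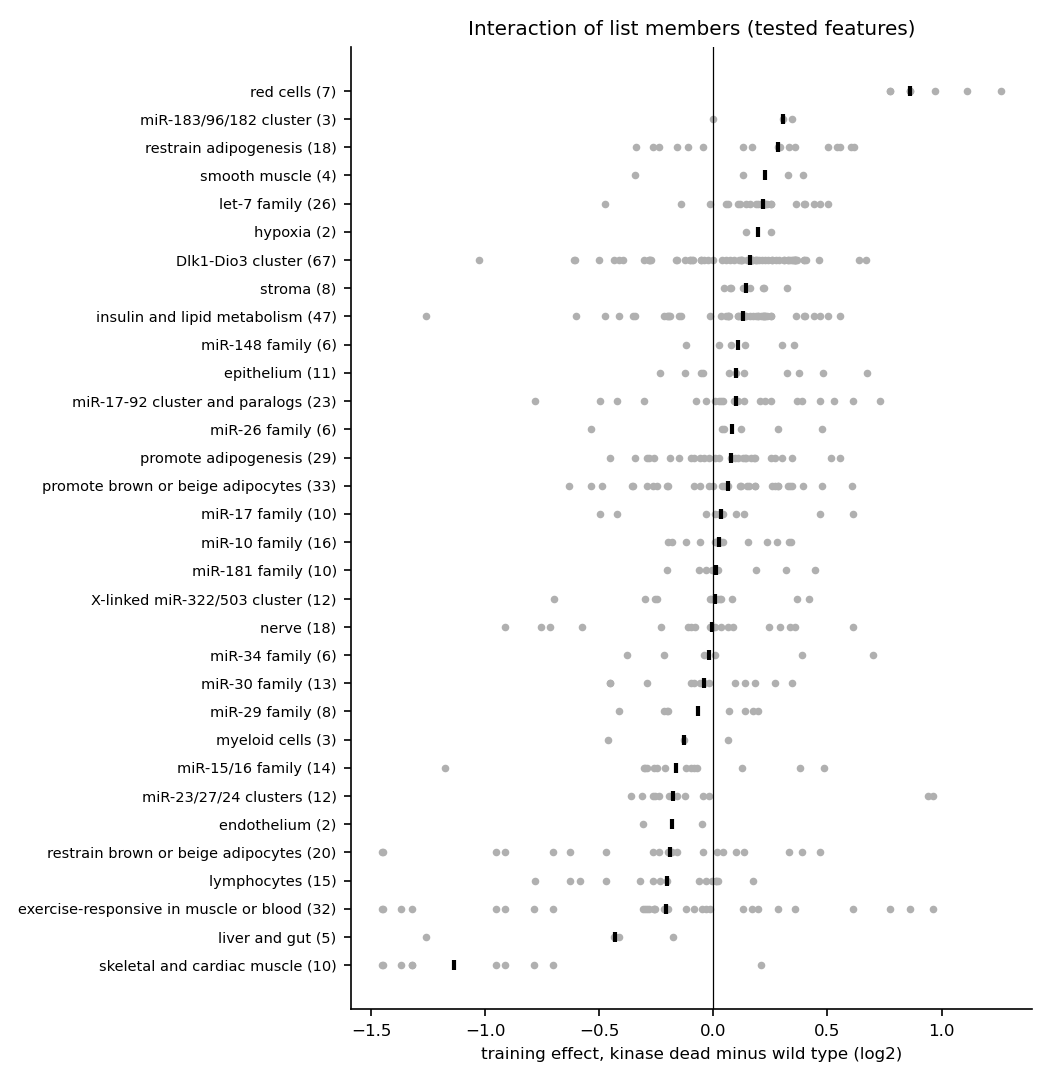
Interaction (log2) of the tested members of each list, 1 grey point per feature, with a black mark at the list's median and the number of tested features in brackets. Red-cell miRNAs form the top row, all above 0, and muscle miRNAs the bottom row, with 9 of 10 below 0. The other medians lie between -0.43 and 0.30.

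Lists for adipocyte biology had medians from -0.19 to 0.28. miRNAs known to promote adipogenesis had 17 of 29 features above 0 and a median of 0.078. Those known to restrain it had 12 of 18 above 0 and a median of 0.28, or 0.11 without trained kinase dead replicate 2, with the miR-221 and miR-31 arms above 0 and its most abundant members, miR-27b-3p (-0.16, SE 0.15) and miR-27a-3p (-0.27, SE 0.25), below. Promoters of brown or beige adipocytes had 19 of 33 above 0 and a median of 0.065, which became -0.013 with upper quartile factors. Their restrainers had 7 of 20 above 0 and a median of -0.19, and the list includes the muscle miRNA miR-133. With the muscle miRNAs as a covariate its median was 0.0065, but miR-133 is itself among those miRNAs, so its own values move by construction. In these 4 lists together no feature had an unadjusted p under 0.05.

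miRNAs reported to respond to exercise in muscle or blood had 9 of 32 features above 0 and a median of -0.21. The list shares miR-1, miR-133 and miR-206 with the muscle markers and miR-486 with the red-cell markers, and it had 19 of 32 above 0, with a median of 0.086, without the libraries rich in miR-150-5p, below the 0.11 of all features. miRNAs of insulin and lipid metabolism had 33 of 47 above 0 and a median of 0.13, and 1 of them, let-7b-3p, had an unadjusted p under 0.05. This list holds all 26 features of the let-7 list described below, 23 of which lay above 0, so the 2 lists are not separate results. The median of the insulin and lipid list was 0.030 without trained kinase dead replicate 2. Its count was 26 of 47 without trained kinase dead replicate 1 and 26 of 41 with loci that share reads counted once. For hypoxia, miR-210-3p, a miRNA known to be induced by HIF, had 0.14 (SE 0.18) and miR-210-5p 0.25 (SE 0.44). The median of both was 0.20, and 0.037 without the libraries rich in miR-150-5p.

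The lists of seed families hold both arms of each hairpin, and the opposite arm does not carry the family's seed. Among these lists, let-7 lay mostly above 0. let-7 restrains growth and dampens insulin signalling through its targets in the insulin and IGF pathway. Of 26 tested features, 23 were above 0, with a median of 0.22, 0 past the adjusted threshold and 1 with an unadjusted p under 0.05. All 10 miRNAs with the seed of the let-7 5p arms lay above 0, from 0.11 for let-7k to 0.47 for let-7i-5p, and this count was 10 under each scaling, with limma-voom and with DESeq2, and 9 without trained kinase dead replicate 1. let-7i-5p was 21000 to 34880 CPM in sedentary wild type (median 25840) and 17130 to 22370 CPM in trained wild type (median 21000). In kinase dead it was 20350 to 29160 CPM when sedentary (median 24250) and 17450 to 39800 CPM when trained (median 22400). The trained wild type libraries were the most uniform, and trained kinase dead replicate 6 was the highest of all. Its interaction was 0.47 (SE 0.23), and 0.30 without that library. let-7 members differ by few bases, so reads can be counted at a relative, and the 10 do not stand for 10 separate measurements. The family's median training effect was -0.12 in wild type and 0.069 in kinase dead. Its median interaction ranged from 0.079 to 0.26 when single libraries were left out.

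The miR-15/16 family, which restrains the cell cycle, had 3 of 14 features above 0 and a median of -0.16, led in level by miR-16-5p (-0.085, SE 0.31) and then miR-195a-5p (-0.070, SE 0.25). Without the libraries rich in miR-150-5p, 7 of 14 lay above 0. The collagen-targeting miR-29 family was split, 4 of 8 above 0, with miR-29a-3p at 0.14 (SE 0.37) and miR-29b-3p at -0.22 (SE 0.80). miR-29b-3p moved to -1.03 without trained kinase dead replicate 2, to 0.19 without trained wild type replicate 1 and to 1.21 without the libraries rich in miR-150-5p. The miR-30 family had 5 of 13 above 0 (median -0.040), with miR-30d-5p at -0.040 (95% interval -0.31 to 0.23). Of 4 miRNAs with a matched RefSeq sequence and the seed of miR-30a-5p, 3 lay above 0 (median 0.12). The miR-34 family had 3 of 6 above 0, with miR-34c-5p at 0.0051 (SE 0.26) and miR-34a-5p at 0.39 (SE 0.29). The value of miR-34a-5p was 0.205 without trained kinase dead replicate 2 and 0.68 without the libraries rich in miR-150-5p. Of 3 miRNAs with a matched RefSeq sequence and the seed of miR-34b-5p, itself included, 2 lay above 0 (median 0.39).

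The remaining families had medians from 0.011 to 0.11. The miR-10 list, which includes miR-99 and miR-125, does not share 1 seed. Among tested miRNAs with a matched RefSeq sequence, only miR-99a-5p, miR-99b-5p and miR-100-5p carry the seed of miR-99a-5p, and miR-125 has another. The list had 12 of 16 above 0 with a median of 0.023, with miR-10b-5p at 0.014 (SE 0.18). The count was 5 of 16 with upper quartile factors and 7 of 16 without the libraries rich in miR-150-5p. The miR-148 family had 5 of 6 above 0 (median 0.11), and 2 of 6 without trained wild type replicate 3, with miR-152-3p at -0.12 (SE 0.27). The miR-26 family had 5 of 6 above 0 (median 0.083), and 3 of 6 with upper quartile factors, with miR-26b-5p at 0.039 (SE 0.23). The miR-17 family had 7 of 10 above 0 (median 0.033), 4 of 10 with upper quartile factors, and 10 of 10 (median 0.205) without the libraries rich in miR-150-5p. Its most abundant members were miR-93-5p at 0.13 (SE 0.17) and miR-20a-5p at -0.031 (SE 0.32). Of the 6 miRNAs with the seed of its 5p arms, 3 lay above 0 (median -0.012). The miR-181 family had 6 of 10 above 0 (median 0.011), 3 of 10 with upper quartile factors and 9 of 10 without the libraries rich in miR-150-5p, with miR-181a-5p at -0.063 (SE 0.28) and miR-181b-2-5p at 0.010 (SE 0.23).

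By genomic cluster, miR-23, miR-27 and miR-24, which are made from common transcripts on 2 chromosomes, had 2 of 12 features above 0 and a median of -0.18. Both exceptions were scarce 5p arms, miR-23a-5p at 0.96 (SE 0.61) and miR-23b-5p at 0.94 (SE 0.52), with means of 1.15 and 2.25 CPM. The imprinted Dlk1-Dio3 cluster, a large array expressed from the maternal chromosome, had 44 of 67 above 0 and a median of 0.16. Its abundant members pointed apart, miR-127-3p at 0.20 (SE 0.28) and miR-379-5p at -0.28 (SE 0.37), and without trained kinase dead replicate 5 the count was 31 of 67 and the median -0.028. Without the libraries rich in miR-150-5p, 53 of 67 lay above 0, with a median of 0.32. miR-17-92 and its paralogs, which promote proliferation, had 17 of 23 above 0 (median 0.097), with miR-92a-3p at 0.25 (SE 0.49) and miR-25-3p at -0.077 (SE 0.25). That count was 9 of 23 (median -0.071) without sedentary wild type replicate 1, 13 of 23 with upper quartile factors, 11 of 21 with loci that share reads counted once, and 22 of 23 (median 0.34) without the libraries rich in miR-150-5p. In the X-linked cluster of miR-322 and miR-503, 6 of 12 lay above 0 (median 0.0049), and 2 of 12 without trained kinase dead replicate 1, with miR-322-5p at -0.30 (SE 0.27) and miR-450a-5p at 0.37 (SE 0.38). Of the sensory-organ cluster that holds miR-96, miR-183-5p had 0.35 (SE 0.26) and miR-182-5p -0.00045 (SE 0.32).

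Arms of 1 hairpin are made from the same transcript, so they offer a description of how far the estimates go together. In 91 hairpins both arms had a mean of at least 10 CPM. Their interactions had the same sign in 58 and opposite signs in 33, with a Pearson r of 0.361 and a Spearman rho of 0.274 across hairpins, which share libraries. miR-106b shows a pair of the same sign, with 0.097 for the 5p arm and 0.47 for the 3p arm, and miR-28a and miR-144 are others described above. Among hairpins of miRNAs named above, signs were opposite for miR-674 (0.13 for the 5p arm and -0.57 for the 3p arm). They were also opposite for miR-378a (0.065 and -0.35). For miR-151 the arms had -0.067 and -0.44.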

How the data were processed

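Small RNA from subcutaneous fat was sequenced in 24 libraries (TRIzol RNA, NEBNext small RNA kit, per the labels' protocols). CASAVA 1.8.2, Trim Galore, Bowtie2, featureCounts and build mm10 are named in the submitters' processing notes, with no strand or multiple-mapping setting. What the authors deposited are raw read counts per mature miRNA locus. Of 25 opposite-strand pairs of loci with at least 1000 reads, 23 had totals within 1%, so strands were not told apart. Names came from RefSeq by coordinates for 1670 of 2045 loci, from another copy of the sequence for 4 and from the GENCODE hairpin and arm for 371.

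The counts were fitted with edgeR 4.0.16 (R 4.3.3): TMM factors, filterByExpr, quasi-likelihood test, 1 fit of the 4 groups, Benjamini-Hochberg adjustment over 654 features, threshold 0.05. For features whose fitted variance falls under the Poisson level, edgeR reports the larger of 2 p-values. SE and intervals were taken from the quasi-likelihood statistic alone, so for such features they can be smaller than that p-value implies. CPM are TMM-scaled, and log2 CPM in covariates and list means use a prior count of 2. limma 3.58.1 (voom) and DESeq2 1.42.0 were alternatives among 38. The fit was tested on simulated data.

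Named were the 10 miRNAs each way with the smallest p at 10 CPM or more, 3 each way below that, the 10 most abundant, the 2 most abundant of each of 32 lists, and miR-203. Loci sharing reads are shown once. The members, lists and rules were chosen with earlier results of these data known. Of 37 miRNAs chosen by p, abundance or as miR-203, 33 had a RefSeq mature sequence. Replicate numbers follow accession order and only name a library.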

Additional observations from a re-analysis of the deposited data

Results flagged for a closer look

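Among 79 named miRNAs in 4 groups, 32 of 316 sets of 6 libraries had a library far from the other 5. Chance would flag 15.8 if the sets were independent and levels were normally spread. The sets share libraries, linked miRNAs recur among them, and levels in CPM were mostly flagged on the high side. The excess over 15.8 is therefore a description. Values in brackets are levels in CPM. In sedentary kinase dead, replicate 2 stood above the rest for miR-451a (3009), miR-144-3p (714.5), miR-144-5p (232.3), miR-1a-3p (3642), miR-133a-3p (500.5), the locus of miR-486-3p that is also miR-3107-5p (628.6) and miR-29b-3p (1464). These are red-cell and muscle miRNAs apart from miR-29b-3p, and the next library stood at 1646 for miR-451a and 1101 for miR-1a-3p. Replicate 5 of that group stood high for miR-378d (1081), let-7g-5p (30230), miR-128-3p (320.5) and miR-450a-5p (236.9), replicate 4 for miR-26a-5p (37660) and miR-223-5p (140.9), replicate 1 for miR-184-3p (504.1) and replicate 3 for miR-210-5p (5.20).

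In sedentary wild type, replicate 1 was far above the others for the lymphocyte miRNAs miR-142a-5p (11390) and miR-150-5p (6098), and also for miR-128-3p (453.2), miR-25-3p (2935) and the miR-486-3p locus (1480). Replicate 2 stood high for the muscle miRNAs miR-1a-3p (3327) and miR-133a-3p (369.1), and replicate 3 for miR-148a-3p (44100). Replicate 5 stood low for miR-93-5p (975.8).

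In trained kinase dead, replicate 2 stood high for miR-29a-3p (26820), miR-29b-3p (1599) and miR-338-3p (291.2), replicate 1 for miR-126b-3p (4224) and replicate 4 for miR-30d-5p (13490). In trained wild type, replicate 3 stood high for miR-26a-5p (33660), replicate 4 for miR-23b-5p (3.27) and replicate 5 for miR-183-5p (617.6).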

How the results depend on the processing

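In each of the 38 alternatives, the interaction and the training effect in either genotype gave 0 features past the adjusted threshold. The number at an unadjusted p under 0.05 (13) was 61 of 1701 with no filter on low counts, 7 of 384 at 10 CPM or more, 22 with the muscle covariate, 7 with limma-voom, and 4 to 28 without each library in turn, lowest without sedentary kinase dead replicate 1 and highest without sedentary kinase dead replicate 5. With miR-451a as a covariate, miR-144-3p went to -0.10, miR-144-5p to -0.15 and the red-cell median to -0.32; the covariate is itself a member. The muscle median went to 0.057 with its own covariate. Without the libraries rich in miR-150-5p, medians were 0.12 for red cells, 0.086 for the exercise list and 0.37 for the miR-29 family, beside 0.11 for all features; the cause was not tested. Other shifts in medians were 0.0041 for promoters of adipogenesis with no filter, 0.35 for the miR-34 family at 10 CPM or more, where fewer features are tested, and 0.11 for restrainers of adipogenesis with limma-voom. Leaving out single libraries gave medians of -2.06 to -0.071 for muscle, 0.079 to 0.26 for let-7, -0.16 to -0.0087 for miR-30, -0.079 to 0.099 for promoters and 0.11 to 0.31 for restrainers of adipogenesis, and -0.049 to 0.12 for promoters of brown or beige adipocytes. With shared loci collapsed, the endothelium list gave no value. Features under 10 CPM had a median half-width of 1.07; whether depth sets this was not tested. No paired analysis was possible because replicate numbers follow accession order.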

Other observations

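These groups were singled out after their values were seen, so they are descriptions. In genomic clusters of at least 3 tested features, joined where gaps were under 10000 bases, the miR-466, miR-467 and miR-669 array had 2 of 25 features above 0 and a median interaction of -0.36. Its members are repetitive, near-identical and scarce, with mean levels that sum to 183 CPM, so reads may be counted at several of them.

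The main miR-17-92 cluster and its X-linked relative pointed apart: 8 of 9 features above 0 with a median of 0.23 in the first, and 2 of 6 with a median of -0.36 in the second, which holds miR-106a, miR-20b and miR-363. The difference between the clusters was not tested, and members such as miR-20b-5p ranged from 4.20 to 104.5 CPM over the libraries. The X-linked miR-20b-5p (-0.42, SE 1.16), miR-106a-5p (-0.50, SE 1.08) and miR-18b-5p (-0.78, SE 1.44) had large errors. Without the libraries rich in miR-150-5p, 22 of the 23 features of miR-17-92 and its paralogs lay above 0, so the contrast was not kept. The X-linked copy of miR-92a-3p, at 0.73 (SE 0.76), is not among the 6 because loci sharing a mature sequence are shown once. For the same reason miR-19b-3p, which has a copy in both clusters, is counted only among the 6. Its X-linked copy had 0.11 at a mean of 411.9 CPM, of 485.8 CPM for the 6 together. The other copy had 0.091, and their shared reads cannot be assigned to either cluster. Of the 3 features of miR-192 and miR-194 that lie together, 0 were above 0, with a median of -0.43.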
